A study of Homo sapiens with 8 samples.

Results

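The interleukin 1 (IL1) family genes followed here were 10 of the 18850 genes named on the array, chosen by name and represented by 19 of its 48798 probes: 4 ligands (IL1A, IL1B, IL18 and IL33), 2 soluble antagonists (IL1RN and IL18BP), 3 receptor chains (IL1R1, IL1RAP and IL1RAPL1) and the signalling kinase family member IRAK2. The choice was made with earlier results of these data known. Every probe whose platform annotation names one of these genes was included. The series asked how gene expression changes when the antisense RNA TRPM2-AS, named for the ion channel gene on the opposite strand, is depleted in PC3, an established line from a human prostate carcinoma. The 4 TRPM2-AS siRNA samples and the 4 control siRNA samples, which received a non-specific duplex, were all PC3 cultures in DMEM with serum and L-glutamine, transfected and harvested at 48 hours. The labels describe 1 TRPM2-AS siRNA and do not say whether replicates were separate cultures, and the spread behind every p-value here may therefore be technical. TRPM2-AS and TRPM2 had 0 named probes, and the depletion was not analysed here.

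IL1 alpha and IL1 beta, encoded by IL1A and IL1B, bind the receptor IL1R1, which then recruits the accessory chain IL1RAP. The receptor complex assembles MYD88 with kinases of the IRAK family, and the signal activates NF-kB and MAP kinases. The antagonist encoded by IL1RN occupies IL1R1 without recruiting the accessory chain, and the protein of IL18BP captures IL18 outside the cell. IL1 beta and IL18 are made as precursors that inflammatory caspases cleave, whereas the IL1 alpha precursor is already active. In epithelial tissue IL1 alpha and IL33 are known as alarm signals released by damaged cells.

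The 250 bases before the most upstream annotated start are shown for the 4 members with the highest signals in TRPM2-AS siRNA arrays relative to control arrays, so that the promoters of genes that were higher together can be set side by side. They are RefSeq sequences of GRCh38.p14, which held a window for 9 of the 10 members, and are read 5′ to 3′ on the strand of the gene. Capitals mark matches, on either strand, to the kappaB consensus of NF-kB, to AP-1 (TGANTCA), to the cyclic AMP response element (TGACGTCA), to the core of the interferon response element or to the TATA box (TATAAA).
IL1A, chr2:112784494-112784743, minus strand: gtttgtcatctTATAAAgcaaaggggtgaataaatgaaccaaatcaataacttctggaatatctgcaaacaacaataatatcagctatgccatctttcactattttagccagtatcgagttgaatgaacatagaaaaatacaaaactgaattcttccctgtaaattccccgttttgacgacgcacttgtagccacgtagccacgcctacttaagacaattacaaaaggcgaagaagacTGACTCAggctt
IL1B, chr2:112836780-112837029, minus strand: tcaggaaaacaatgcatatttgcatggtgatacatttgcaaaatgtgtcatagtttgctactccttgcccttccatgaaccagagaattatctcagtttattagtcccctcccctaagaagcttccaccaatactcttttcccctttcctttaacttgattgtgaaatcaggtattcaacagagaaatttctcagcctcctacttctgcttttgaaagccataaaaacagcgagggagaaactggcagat
IL1RAPL1, chrX:28587196-28587445, plus strand: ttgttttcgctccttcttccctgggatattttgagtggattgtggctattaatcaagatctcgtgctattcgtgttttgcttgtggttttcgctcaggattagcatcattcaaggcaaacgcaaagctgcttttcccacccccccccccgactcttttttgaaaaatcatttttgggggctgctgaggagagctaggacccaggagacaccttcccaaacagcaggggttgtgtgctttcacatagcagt
IRAK2, chr3:10164669-10164918, plus strand: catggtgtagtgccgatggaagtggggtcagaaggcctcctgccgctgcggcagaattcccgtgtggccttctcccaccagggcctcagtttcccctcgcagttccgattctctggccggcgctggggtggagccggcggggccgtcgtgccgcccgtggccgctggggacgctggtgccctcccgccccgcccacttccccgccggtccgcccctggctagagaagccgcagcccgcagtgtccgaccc
Of these 4 windows, the IL1A window alone held matches, 1 to AP-1 at bases -12 to -6 from the start and 1 to the TATA box at bases -239 to -234. The other annotated IL1A start, 93 bases downstream, had a second AP-1 match in its window at bases -55 to -49. Of the members not shown, IL18BP had the interferon response core in 1 of 4 windows, at bases -67 to -58. The 3 IL1RN windows held that core at bases -231 to -222 and -122 to -113, an AP-1 match at -223 to -217 and TATA box matches at -32 to -27 and -30 to -25. Both core positions are the same genomic bases, seen in overlapping windows. The IL1RN TATA box matches share bases and are read on opposite strands. The IL1R1 windows held TATA box matches at -229 to -224 and -124 to -119. Among 35116 promoter windows of the same length, 6.57% held the AP-1 letters, 10.7% the TATA box, 6.88% the kappaB consensus, 3.02% the interferon response core and 1.65% the cyclic AMP response element. The matches are descriptions of letters, not of bound sites.

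Of the 8 columns of non-normalized signal, 7 ranked all probes exactly as 1 sample of their own group did in the authors' processed table. The remaining column, which carries the siRNA name and the number 2, followed no sample (Spearman rho of 0.809 to 0.817 with TRPM2-AS siRNA samples and 0.82 to 0.832 with control samples) and was left out. This left 3 TRPM2-AS siRNA arrays, named here by their columns 1, 3 and 4, and 4 control arrays, columns 1 to 4. A probe was called detected at a detection p under 0.01, which held for 13832 to 14318 probes on TRPM2-AS siRNA arrays and 13163 to 13972 on control arrays. Of the epithelial markers, KRT8, KRT18 and EPCAM were detected on all 7 arrays, whereas CDH1 was detected on all 3 TRPM2-AS siRNA arrays and 0 control arrays. EPCAM (log2 fold change -1.14, limma adjusted p = 6.29e-06) and KRT18 (-0.51, limma adjusted p = 0.0257) were lower with TRPM2-AS siRNA, and KRT8 did not pass (-0.004). The summed raw signal of these 4 genes was 2908 to 3178 on TRPM2-AS siRNA arrays and 4358 to 4931 on control arrays. Such sums, here and below, include the background of probes that were not detected. KLK2 and KLK3, androgen targets known to be low in PC3, were detected on 0 arrays, while TMPRSS2, another gene of that axis, was detected on 2 TRPM2-AS siRNA arrays and 1 control array. Of 7 blood cell markers PTPRC, CSF1R, LYZ, CD3E and MS4A1 were detected on 0 arrays, while CD68 was detected on all arrays and lower with TRPM2-AS siRNA (log2 fold change -1.47) and CD14 did not pass (log2 fold change -0.28). The summed raw signal of the blood cell list was 3016 to 3099 on TRPM2-AS siRNA arrays and 4393 to 5237 on control arrays, and of 5 fibroblast and endothelial markers COL1A1 alone was detected. COL1A1 was higher with TRPM2-AS siRNA (log2 fold change 0.75, limma adjusted p = 0.000403), and the summed raw signal of its list was 1241 to 1286 on TRPM2-AS siRNA arrays and 1105 to 1225 on control arrays. The part of these marker differences in the results was not tested.

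Detection divided the family before any comparison of levels. Of the 19 probes, 6 were detected on all 7 arrays, 1 each for IL1B, IL18, IL18BP, IL1RAP, IL1RAPL1 and IRAK2. Those for IL1A and for 1 of 2 IL33 probes were detected on TRPM2-AS siRNA arrays alone. The other 11 probes were detected on 0 arrays, among them the only probe of IL1R1 and all 3 probes of IL1RN. The signalling receptor and the receptor antagonist thus gave no detected signal in either group.

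**Figure D1:**
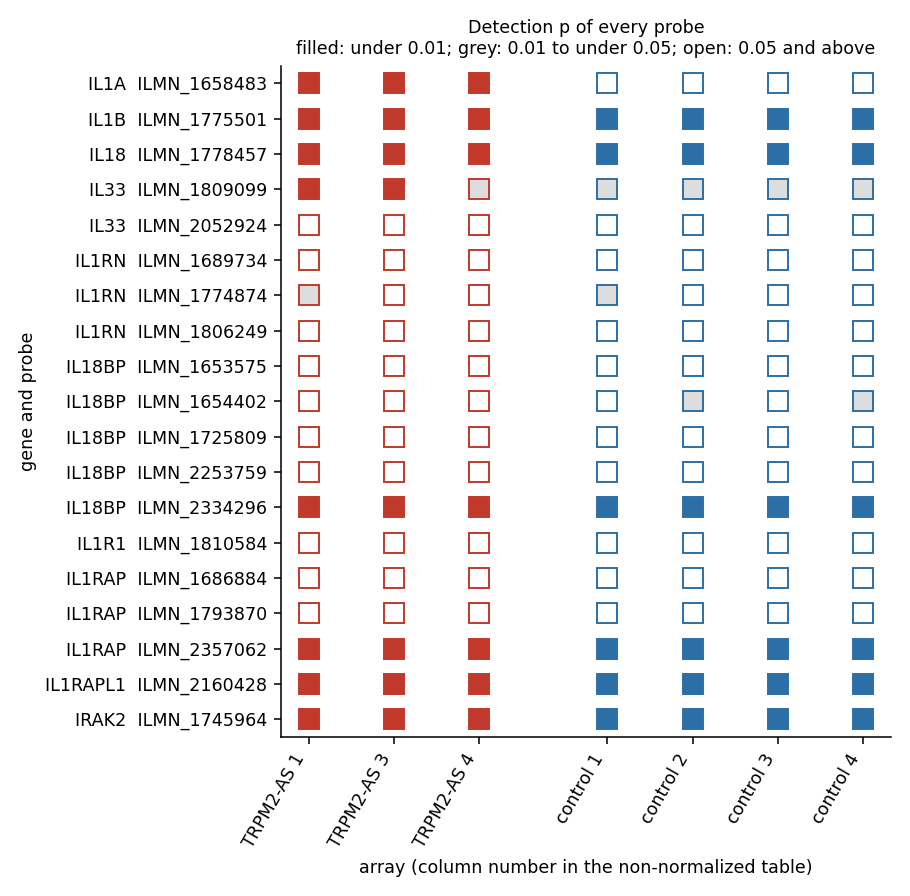
Detection p of each of the 19 probes (rows, gene and probe name) on the 3 TRPM2-AS siRNA arrays and the 4 control arrays (columns). Filled squares mark a detection p under 0.01, grey squares 0.01 to under 0.05 and open squares 0.05 and above, and 6 rows are filled on all 7 arrays.

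Of the 6 members detected widely enough to test, 4 were higher and 1 was lower with TRPM2-AS siRNA (limma, Benjamini-Hochberg adjusted p under 0.05 over 9272 genes). The threshold was passed by 57% of all genes, 27.4% higher and 29.6% lower, so passing it does not by itself set a member apart. The groups did not overlap in 5 of the 6, against 57.3% of all genes. By size, IL1B, IL1RAPL1 and IRAK2 were at least 4-fold higher, as were 1.33% of all genes. The 6 had a median log2 fold change of 1.57, against -0.01 over all genes. Since the members were chosen with earlier results of these data known, these shares and medians are descriptions and not tests. Since RNA came from whole cultures, more cells making a transcript and more of it per cell cannot be told apart.

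IL1B had the largest fitted change of the 6 tested members, while for IL1A only a lower bound can be given. Its normalized log2 signal was 12.50, 12.49 and 12.39 on TRPM2-AS siRNA arrays 1, 3 and 4, against 7.13, 7.33, 6.73 and 7.08 on control arrays 1 to 4. The 3 TRPM2-AS siRNA arrays lay close together and far above every control array, on which the gene was still detected. The fitted log2 fold change was 5.39 ± 0.14 (SE; 95% interval 5.08 to 5.70; n = 3 and 4; limma adjusted p = 1.10e-09), or 42.0-fold, which ranked 3 among 9272 genes. In the authors' processed values, which were not background subtracted, IL1B intensity was 5977, 5951, 6515 and 5546 in TRPM2-AS siRNA replicates 1 to 4, against 247, 212, 269 and 241 in control replicates 1 to 4. That table holds the TRPM2-AS siRNA sample without a raw column, and gave 24.8-fold (log2 fold change 4.63 ± 0.09 SE, limma adjusted p = 2.88e-16). In it the same 5 members passed, where 61.6% of all genes passed and 54.4% had groups that did not overlap.

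IL1A was seen with TRPM2-AS siRNA and not with control siRNA. Its log2 signal was 8.12, 7.69 and 7.86 on TRPM2-AS siRNA arrays, against 4.73, 4.98, 4.56 and 4.69 on control arrays, where the lowest detection p was 0.191. All control values are background, so only a bound can be given: IL1A was at least 3.55-fold higher (mean of 7.89 against 6.06, the control arrays set at their dimmest detected probe). This bound holds on the background-corrected scale only. The authors' processed values, not background subtracted, gave a log2 fold change of 1.58, a smaller fold. A filter on 3 arrays would admit IL1A through TRPM2-AS siRNA arrays alone, so no p-value from it is given. The authors' processed intensities were 388, 317, 313 and 342 in TRPM2-AS siRNA replicates, against 114, 102, 126 and 112 in control replicates. Those 4 TRPM2-AS siRNA samples, with replicate 3, which has no traced raw column, all lay above the controls. With no filter on dim probes IL1A passed in both tables, where 29.5% of all genes passed on the 7 arrays and 33.2% in the authors' processed values. That fit sets IL1A against control background and its shares cover genes below the detection filter, so it adds nothing to the bound.

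IL18, the ligand activated by the same caspases as IL1 beta, was bright in both groups. Its log2 signal was 13.10, 13.43 and 13.23 on TRPM2-AS siRNA arrays, against 13.22, 13.29, 13.20 and 13.11 on control arrays. The groups overlapped, and the log2 fold change of 0.05 ± 0.12 (SE; limma adjusted p = 0.745) had a 95% interval of -0.21 to 0.31, which leaves out a change of 2-fold in either direction. IL18 also kept overlapping groups in the authors' processed values, at 8985 to 11198 with TRPM2-AS siRNA and 9051 to 10130 with control siRNA.

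IL33 lay at the edge of detection. The brighter of its probes, ILMN_1809099, had log2 signals of 6.12, 6.06 and 5.85 on TRPM2-AS siRNA arrays, against 5.32, 5.59, 5.36 and 5.43 on control arrays. It was detected on arrays 1 and 3 of TRPM2-AS siRNA and on 0 control arrays, and its mean did not exceed the dimmest detected probe, so no fold is given. At a looser detection p of 0.05 the probe was detected on all 7 arrays, and it passed the test (limma adjusted p = 0.00238), as did 52.1% of all genes. The other IL33 probe, ILMN_2052924, was at background on all 7 arrays, although the platform annotation assigns both probes to the same transcript.

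**Figure D2:**
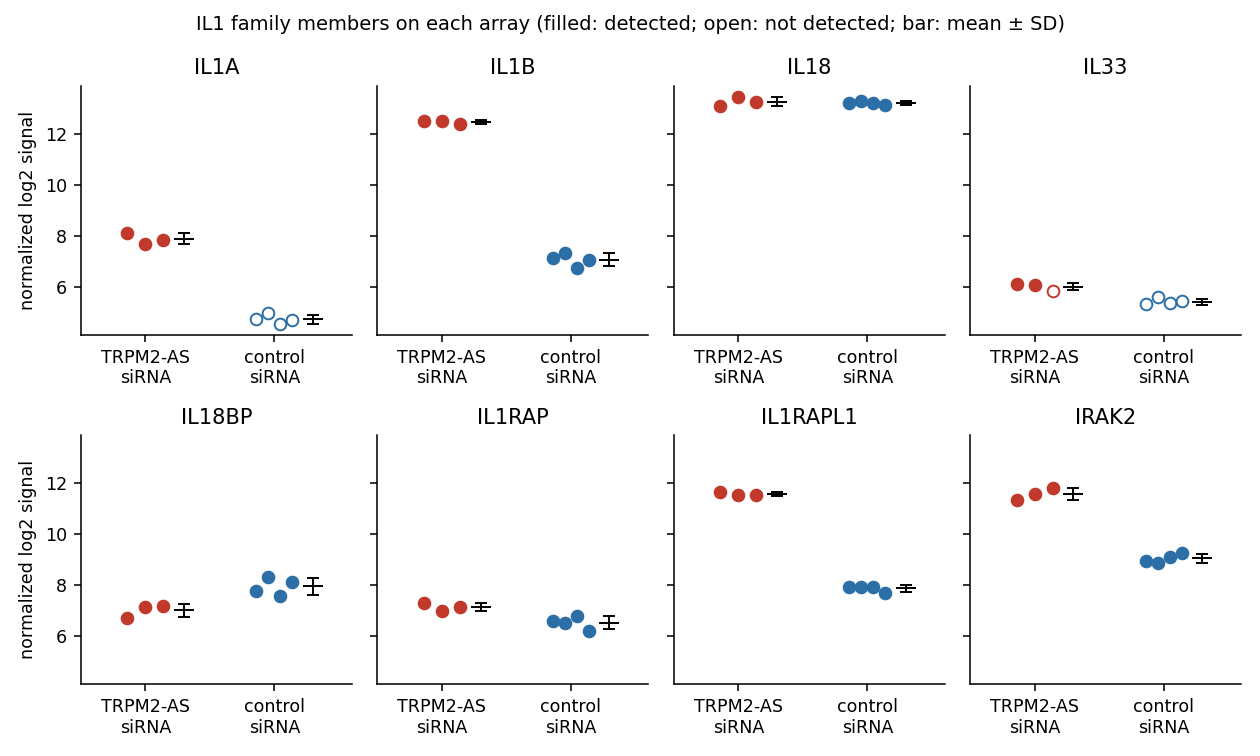
Normalized log2 signal (vertical axis) of 8 IL1 family genes on 3 TRPM2-AS siRNA arrays (red, left) and 4 control arrays (blue, right), with the mean and SD beside each group. Open circles are arrays where the probe was not detected; IL1B averaged 12.46 with TRPM2-AS siRNA and 7.07 with control siRNA, while the IL18 groups overlap.

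Of the antagonist genes IL18BP was detected and was lower, and IL1RN was not detected. The IL18BP probe that was detected, ILMN_2334296, had log2 signals of 6.70, 7.16 and 7.18 on TRPM2-AS siRNA arrays, against 7.77, 8.33, 7.58 and 8.13 on control arrays. Every TRPM2-AS siRNA array was below every control array, and IL18BP fell 1.92-fold (log2 fold change -0.94 ± 0.19 SE, limma adjusted p = 0.00133). In the authors' processed values the fall was 1.42-fold (limma adjusted p = 0.00205) and the groups overlapped, with 210, 250, 309 and 252 in TRPM2-AS siRNA replicates against 329, 301, 434 and 391 in control replicates. The other 4 IL18BP probes were detected on 0 arrays, so the fall rests on 1 of 5 probes.

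IL1RN gave no detected signal. The group means of its 3 probes were 4.72 to 5.21 with TRPM2-AS siRNA and 4.81 to 5.10 with control siRNA on the log2 scale, while the dimmest detected probe of an array was at 5.88 to 6.22. A difference in the receptor antagonist was not detectable at this signal. With no filter on dim probes the brightest IL1RN probe had a log2 fold change of 0.11 (limma adjusted p = 0.702).

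Among the receptor genes, IL1RAPL1 changed most. IL1RAPL1, which is related in sequence to the accessory chain and is best known at neuronal synapses, had log2 signals of 11.67, 11.52 and 11.54 on TRPM2-AS siRNA arrays, against 7.94, 7.94, 7.95 and 7.68 on control arrays. Control array 4 was the lowest of a group whose other arrays were nearly equal, and every TRPM2-AS siRNA array was higher. The log2 fold change was 3.70 ± 0.12 (SE; 95% interval 3.45 to 3.96; limma adjusted p = 4.59e-09), or about 13-fold, which ranked 12 among all genes. The authors' processed intensities were 3417, 3100, 3273 and 3134 in TRPM2-AS siRNA replicates and 355, 357, 355 and 315 in control replicates, or 9.36-fold.

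IL1RAP, the shared accessory chain, rose by less. Its detected probe, ILMN_2357062, had log2 signals of 7.29, 6.99 and 7.16 on TRPM2-AS siRNA arrays, against 6.60, 6.52, 6.80 and 6.21 on control arrays. The groups did not overlap, and the log2 fold change was 0.61 ± 0.15 (SE; limma adjusted p = 0.00432), or 1.53-fold. In the authors' processed values the IL1RAP fold was 1.22 (limma adjusted p = 0.0110), with 264, 234, 224 and 250 in TRPM2-AS siRNA replicates against 202, 217, 197 and 178 in control replicates. The other 2 IL1RAP probes were detected on 0 arrays.

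IL1R1, the signalling receptor for both IL1 ligands, stayed at background. Its log2 signal was 4.60, 4.69 and 4.55 on TRPM2-AS siRNA arrays, against 4.60, 4.81, 4.82 and 4.63 on control arrays, with the lowest detection p at 0.403. Whether the receptor transcript differed could not be measured with this probe.

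IRAK2, which carries the signal from MYD88 to TRAF6, was higher. Its log2 signal was 11.35, 11.59 and 11.79 on TRPM2-AS siRNA arrays, against 8.96, 8.87, 9.11 and 9.26 on control arrays. The highest control array was more than 2 log2 units below the lowest TRPM2-AS siRNA array, and IRAK2 rose 5.77-fold (log2 fold change 2.53 ± 0.14 SE, limma adjusted p = 1.20e-07). It ranked 58 among 9272 genes. In the authors' processed values it was 2765, 3248, 3123 and 3715 in TRPM2-AS siRNA replicates and 615, 671, 584 and 731 in control replicates, or 4.93-fold.

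**Figure D3:**
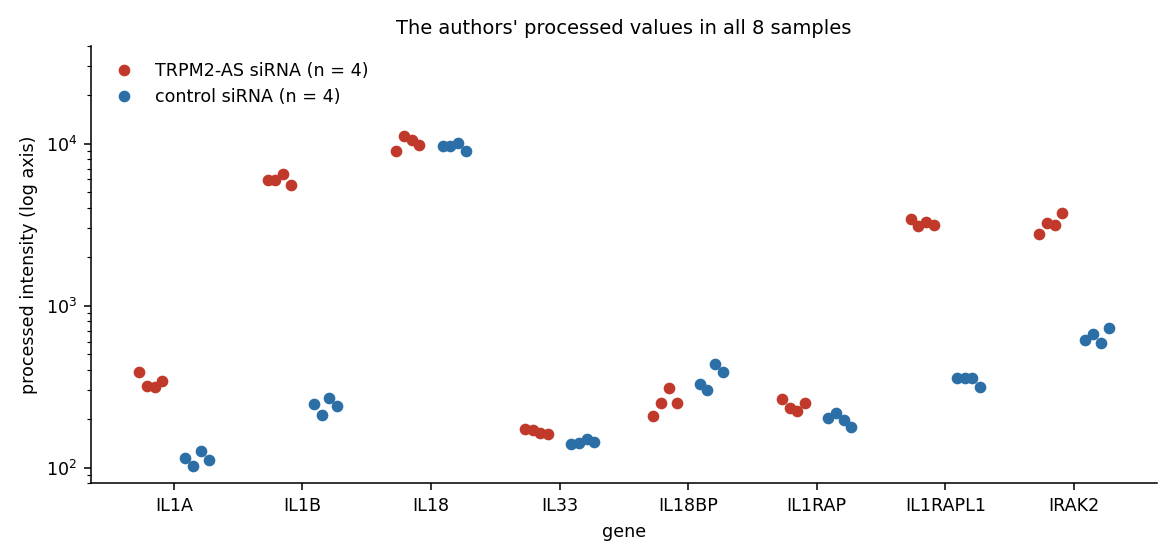
The authors' processed intensity (vertical axis, log scale) of the same 8 genes in 4 TRPM2-AS siRNA samples (red, left of each pair) and 4 control samples (blue, right). IL1B lies at 5546 to 6515 with TRPM2-AS siRNA against 212 to 269 with control siRNA, and the IL18BP groups overlap.

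**Figure D4:**
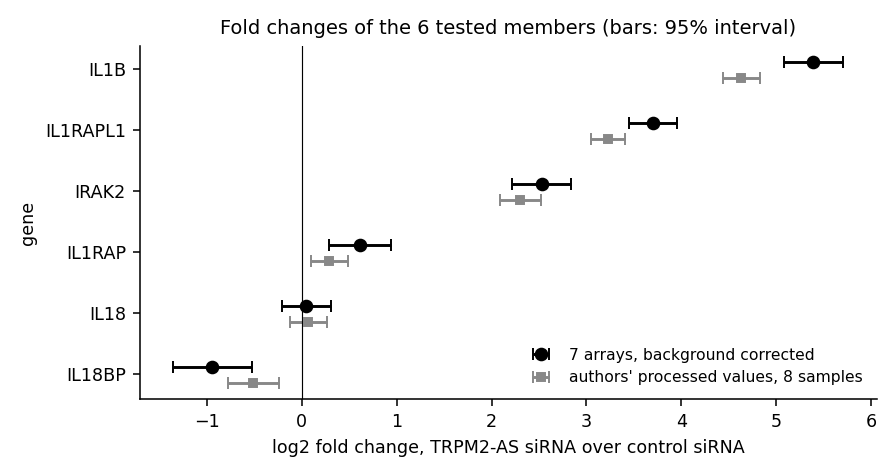
Log2 fold change of TRPM2-AS siRNA over control siRNA (horizontal axis) for the 6 tested members, with 95% intervals. Black points are the 7 background-corrected arrays and grey squares the authors' processed values of 8 samples; IL1B is at 5.39 and 4.63, and the IL18 intervals span 0.

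The column that followed no sample had member values near the control arrays. With all 8 columns normalized together, its IL1B log2 signal was 7.43, against 12.43 to 12.54 on the other TRPM2-AS siRNA columns and 6.78 to 7.39 on control arrays. Its IRAK2 signal was 8.85, against 11.40 to 11.84 on the other TRPM2-AS siRNA columns and 8.92 to 9.30 on control arrays, and IL1A was not detected in it. With that column kept under its name, IL1B, IL1RAPL1, IRAK2 and IL18BP still passed, with log2 fold changes of 4.12, 2.78, 1.83 and -0.75 and limma adjusted p between 0.0207 and 0.0479. IL1RAP no longer passed (log2 fold change 0.41, limma adjusted p = 0.181).

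The rest of the IL1 system was read from lists chosen with earlier results of these data known, so the counts in them are descriptions and not tests. Of the other 6 ligand genes of the family, IL36A, IL36B, IL36G, IL36RN and IL1F10 were detected on 0 arrays. IL37 encodes a ligand that restrains inflammation. Its log2 signal averaged 6.85 ± 0.31 (SD, n = 3) with TRPM2-AS siRNA and 6.47 ± 0.16 (SD, n = 4) with control siRNA. It did not pass (log2 fold change 0.38, limma adjusted p = 0.0551), but passed in 4 of 23 alternatives. The IL37 values are of 1 of its 3 probes.

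Of the 7 other receptor genes, IL1R2, IL1RL2, IL18RAP and IL1RAPL2 were detected on 0 arrays. IL18R1, the chain that binds IL18, averaged 8.12 ± 0.14 (SD, n = 3) with TRPM2-AS siRNA and 7.15 ± 0.08 (SD, n = 4) with control siRNA and rose 1.96-fold (limma adjusted p = 2.91e-05). SIGIRR, an inhibitory receptor of the family, rose 1.83-fold (limma adjusted p = 0.00508). In the authors' processed values the log2 fold changes were smaller, 0.58 for IL18R1 and 0.55 for SIGIRR, against 0.97 and 0.87 here. IL1RL1, which encodes the IL33 receptor ST2, had a mean log2 signal of 11.35 with TRPM2-AS siRNA and 11.42 with control siRNA and did not pass (log2 fold change -0.07 ± 0.15 SE, limma adjusted p = 0.716). These values are of the brightest of its 3 probes, and the gene passed in 1 of 23 alternatives.

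Receptor-proximal signalling genes went both ways, with 5 of 10 tested higher and 4 lower, where 27.4% of all genes were higher and 29.6% lower (median log2 fold change 0.04, against -0.01 over all genes). Of these 9, TRAF6 passed in 14 and MAP3K7 in 16 of 23 alternatives. PELI1, a ubiquitin ligase that acts on IRAK proteins, rose 3.59-fold (log2 fold change 1.84, limma adjusted p = 4.14e-06; 1.24 in the authors' processed values), and the adaptor MYD88 rose 1.55-fold. TAB1, a partner of the kinase TAK1, fell 2.04-fold, and IKBKB, an I-kappa-B kinase, fell 1.62-fold. Beside the rise of IRAK2, the related kinase gene IRAK1 had a log2 fold change of -0.31 (limma adjusted p = 0.0614). IRAK1 passed in 7 of 23 alternatives, among them the authors' processed values (log2 fold change -0.26, limma adjusted p = 0.0316). IRAK3 was detected on 0 arrays.

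Of the genes for processing and release of the ligands, 3 of 7 tested were higher and 0 lower, where 27.4% of all genes were higher and 29.6% lower (median log2 fold change 0.14, against -0.01 over all genes). CASP1, which encodes the main caspase that cleaves IL1 beta and IL18, and the adaptor gene PYCARD were detected on 0 arrays. CASP4, an inflammatory caspase, averaged 10.56 ± 0.15 (SD, n = 3) with TRPM2-AS siRNA and 8.90 ± 0.08 (SD, n = 4) with control siRNA and rose 3.16-fold (limma adjusted p = 5.45e-07). The inflammasome sensor gene NLRP3 and CASP8 also passed, but both were detected on 1 of 4 control arrays, so the size of their change is uncertain. The fitted NLRP3 log2 fold change was 1.91, against 1.12 in the authors' processed values, and that of CASP8 was 0.66, against 0.24. Leaving out control array 2 or any 1 of the TRPM2-AS siRNA arrays took both genes below the filter, and CASP4 was then the 1 of the 3 that passed. CAPN2, a calpain subunit, did not pass (log2 fold change -0.27, limma adjusted p = 0.0636).

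Of 21 listed genes known to respond to IL1 in epithelial cells 8 were tested, and all 8 were higher, where 27.4% of all genes were higher (median log2 fold change 2.44, against -0.01 over all genes). IL6 rose 59.1-fold, with a log2 fold change of 5.89, against 5.01 in the authors' processed values. The chemokine gene CXCL8 rose 34.6-fold, with log2 fold changes of 5.11 and 4.92 in these tables. The NF-kB inhibitor gene TNFAIP3 rose 7.05-fold, with a log2 fold change of 2.82, against 2.11 in the authors' processed values. CXCL2, detected on 2 of 4 control arrays, was fitted at a log2 fold change of 3.06, against 1.98 in the authors' processed values. These genes are also known to respond to other inflammatory signals. Of the untested genes, named here after their values were seen, CXCL1, CCL20 and PTGS2 were detected on 3 of 3 TRPM2-AS siRNA arrays and CSF3 on 1, and all 4 on 0 control arrays. The remaining 7 with a probe were detected on 0 arrays of either group.

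**Figure D5:**
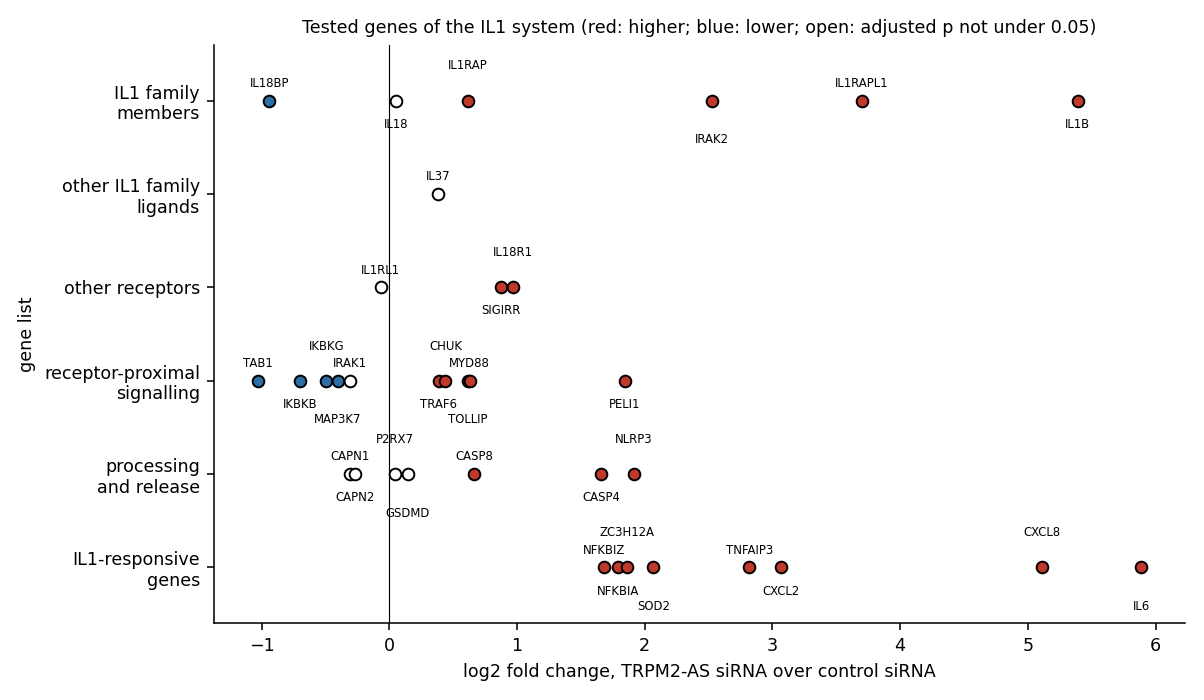
Log2 fold change of TRPM2-AS siRNA over control siRNA (horizontal axis) for every tested gene of the 6 lists of the IL1 system (rows). Red points were higher and blue points lower at an adjusted p under 0.05, open points did not pass, and all 8 IL1-responsive genes lie to the right of 0.

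Over the 7 arrays, 5 genes had profiles most like that of IL1B, measured as the root mean square distance between log2 signals after each gene's control mean was subtracted. CXCL8 was nearest at 0.32 log2 units, followed by IL6 at 0.42 and SCG5, a chaperone of secretory granules, at 0.76. The stress cytokine gene GDF15 and the fatty acid carrier gene FABP4 followed, both at 0.93, while the median distance of all genes was 3.54. On TRPM2-AS siRNA arrays IL1B was 5.32 to 5.43 log2 units above its control mean and CXCL8 5.03 to 5.17 units above its own. With 2 groups this likeness is mostly a like difference between them. SCG5 was detected on 3 and FABP4 on 2 of the 4 control arrays.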

How the data were processed

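Total RNA was labelled with biotin and hybridised to 1-colour Illumina bead arrays. The first deposited table holds non-normalized intensity with a detection p-value beside each signal, per the file headers, exported from BeadStudio per the submitters' processing notes; no version is given in the sources used here. A further table deposited by the authors gives processed intensity on a linear scale; limma is named in the submitters' processing notes, and from the values the columns share 1 distribution, as after quantile normalization. Of the 48798 probes, 28094 had 1 gene name, 13 several and 20691 none, and 0 names needed an update.

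From the non-normalized table, 7 columns were used. With limma 3.58.1 in R 4.3.3, background estimated from the detection p-values was removed by normexp (offset 16), followed by quantile normalization and log2. Detection at p under 0.01 on 4 or more arrays left 13675 probes, and the brightest probe stood for each of 9272 genes. A gene detected on the 4 control arrays only can pass, whereas one detected on the 3 TRPM2-AS siRNA arrays only cannot. Groups were compared with lmFit and eBayes, two-sided, and p-values were adjusted by Benjamini-Hochberg over all genes. The code of the fit was run on simulated data with few changed genes and independent noise on each array. That setting differs from these data, where 57% of genes passed, so no conclusion is drawn from it. Where a probe was detected on 0 arrays of 1 group, the fold is a lower bound against the higher of its own signal and the dimmest detected probe of each array. The number of arrays limits the precision, with a median SE of 0.14.

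All 10 members were named with every probe, and up to 4 tested genes of each other list by smallest p. IRAK1, IRAK3, TRAF6, MAP3K7, CASP1, PYCARD and the IL1-responsive genes off control detection were named after their values were seen. The members and lists were chosen with earlier results of these data known. Column numbers did not give replicate numbers. Same-numbered samples of the processed table deviated together with r of -0.072 to 0.39, so the numbers were not taken as pairs. Alternatives covered background, offset, normalization, filter, probe choice, variance model, array weights, the authors' values, the replicate block and single arrays left out; the fit with the untraced column and the authors' values without a filter were chosen after seeing the data.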

Additional observations from a re-analysis of the deposited data

Results flagged for a closer look

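The IL1RAPL1 signal of 1 control sample lay below the other 3, which were nearly equal. On control array 4 its normalized log2 signal was 7.68 against 7.94 to 7.95, a gap of 0.959 of the range of the group, above the 95% critical value of Dixon's test for 4 samples. In the authors' processed values the same gap was 0.957 of the range, with 315 in control replicate 4 against 355 to 357. Of 21 groups of 4 examined over 7 probes, these 2 stood out, and chance alone gives about 1 in 20. Both are the same control samples in different processing, as are the other control groups, so they are not independent events. The IL1RAPL1 fold change does not rest on that array, since leaving out single arrays gave log2 fold changes of 3.63 to 3.73.

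The column that followed no sample was not part of the comparison. Its IL1B log2 signal of 7.43 was above the highest control array, at 7.39, by less than the range of the control arrays. No other member detected in it exceeded every control array.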

How the results depend on the processing

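Of the 23 alternatives run on 6 tested members, IL1B, IL1RAPL1, IRAK2 and IL18BP passed the threshold in the same direction under every one, and IL18 under none, with log2 fold changes of 4.12 to 5.56, 2.78 to 3.79, 1.83 to 2.64, -1.06 to -0.51 and -0.04 to 0.12. IL1RAP passed in 22 (0.29 to 0.71, adjusted p of 0.00270 to 0.181), the exception being the fit with all 8 columns. Leaving out 1 array in turn called 5 members each time, 4717 to 5072 genes in all and 19 to 22 of the other pathway genes, against 5, 5281 and 22 with all 7 arrays. With all 8 columns, the untraced one included, 2450 genes and 10 other pathway genes passed. With no filter on dim probes IL1A and IL33 passed as well, in both tables, where 29.5% of all genes passed on the 7 arrays. Neither gene was detected on a control array at p under 0.01. These passes therefore set both genes against control values at or near background and add no support for a rise. The IL1B log2 fold change was 5.39 with background correction and 4.60 without it on the same 7 arrays, against 4.63 in the authors' values. IL18 changed sign among alternatives without passing. The median of all genes moved by less than 0.1 log2 units under every scaling. With the replicate number as a block in the authors' values, 6011 genes, 5 members and 23 other pathway genes passed, against 5707, 5 and 23 without it. Of 4 TRPM2-AS siRNA samples, 2 correlated best with the control sample of their own number. The replicate block was not run on the 7 arrays, whose columns carry no replicate number. Bead signal limits IL1RN, IL1R1 and IL33, which lay at or near background.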
